A study of Mus musculus with 6 samples.

Results

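The mTOR and AMPK energy-sensing genes were examined in a list of methylated regions from mouse chondrocytes. They are 10 named genes, Mtor, Rptor, Rictor, Deptor, Tsc1, Tsc2, Prkaa1, Prkaa2, Prkag2 and Stk11, out of 15771 protein-coding genes on the sequence the list covers. The rule is a list of names with no measured value in it, but the names were chosen with earlier results of these data known. All 10 were found on the covered sequence. In MBD-seq, DNA fragments carrying methylated CpG are pulled down with MBD2, a protein that binds them, and are then sequenced; here the DNA came from primary chondrocytes, the cells of cartilage, cultured from the knee articular cartilage of mice at postnatal days 3 to 5. The labels give 3 control cultures, with the genotype Dnmt1 flox and no zygosity stated, and 3 conditional knockout (cKO) cultures, with the genotype Prx1-Cre;Dnmt1 flox/flox. Dnmt1 restores CpG methylation on the new strand after DNA replication, and Prx1-Cre is active in limb mesenchyme, so other lineages of the mouse keep the gene. Both groups carry the floxed allele.

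The comparison of the 2 groups addresses which regions depend on Dnmt1 for their methylation. The data are one list of 84111 peaks called on 3 merged datasets, and the peak names do not say which group these came from. The submitters titled the list as holding Dnmt1-mediated DNA methylation; how the peaks were tied to Dnmt1, and which data gave the background of the fold, is not given in the sources used here. No value belongs to a single culture. There is thus no spread between replicates, no test of control against cKO, and no depth per sample, and the cell type could not be checked against marker genes. Every value below describes this one list. A peak belongs to a gene when its midpoint lies within the gene's bounds, and the values of one gene's peaks are not replicates.

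mTOR is a kinase that drives protein synthesis and growth when amino acids, growth factors and energy are at hand. It works in complex 1 (mTORC1), held together by Raptor, the product of Rptor, and in complex 2 (mTORC2), held together by Rictor. Deptor binds and inhibits mTOR, and the complex of Tsc1 and Tsc2 keeps mTORC1 off by switching off the small GTPase Rheb. AMPK is the opposing sensor: when ATP runs low, AMP binds its gamma subunit, the kinase LKB1 (the product of Stk11) phosphorylates its alpha subunit, and AMPK then phosphorylates Tsc2 and Raptor to restrain mTORC1. Cartilage is poorly vascularised, and chondrocytes draw much of their ATP from glycolysis.

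All 10 genes held at least 1 peak in the body. The share was 64.7% over all protein-coding genes and 81.8% over the 8408 protein-coding genes whose length lies between those of the shortest and longest of the 10. Together the 10 bodies, 1109 kb of DNA, held 97 peaks, or 8.75 peaks per 100 kb, against 5.69 per 100 kb over protein-coding genes. Mtor alone contributed 24 of the peaks, and without it the density was 7.30 per 100 kb. The ratio to protein-coding genes was 1.54 with Mtor and 1.28 without it. Among peaks with a −log10 q of at least 100 the ratio was 1.28 with Mtor and 1.02 without it, the lowest over 7 other ways of placing, merging or filtering peaks. With a fold of at least the median of the list it was 1.58 and 1.31. The highest ratios over the 7 were 1.79 with Mtor and 1.48 without it.

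Peak density ran from 2.04 per 100 kb in Deptor to 27.1 in Tsc2. Tsc2, Stk11 (26.8) and Mtor (22.0) formed the upper end. Prkaa1 (13.1) and Rictor (9.78) came next. Rptor (6.40), Prkaa2 (6.23), Prkag2 (6.16) and Tsc1 (5.98) lay close together, and a single peak more or less in Tsc1 or Prkaa2 would change their order. Each gene was then placed among the protein-coding genes of similar length, those at most 25% longer or 20% shorter. By density, 9 of the 10 genes lay above the median of genes of similar length and Deptor lay below it. With only peaks of a −log10 q of at least 100, Tsc1 also lay below it, at the 46.5th percentile; with only peaks of at least the median fold of the list, Tsc1 lay at the 43.3rd and Deptor lay above it, at the 52.8th. This placing is a description of one list, with no test.

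**Figure D1:**
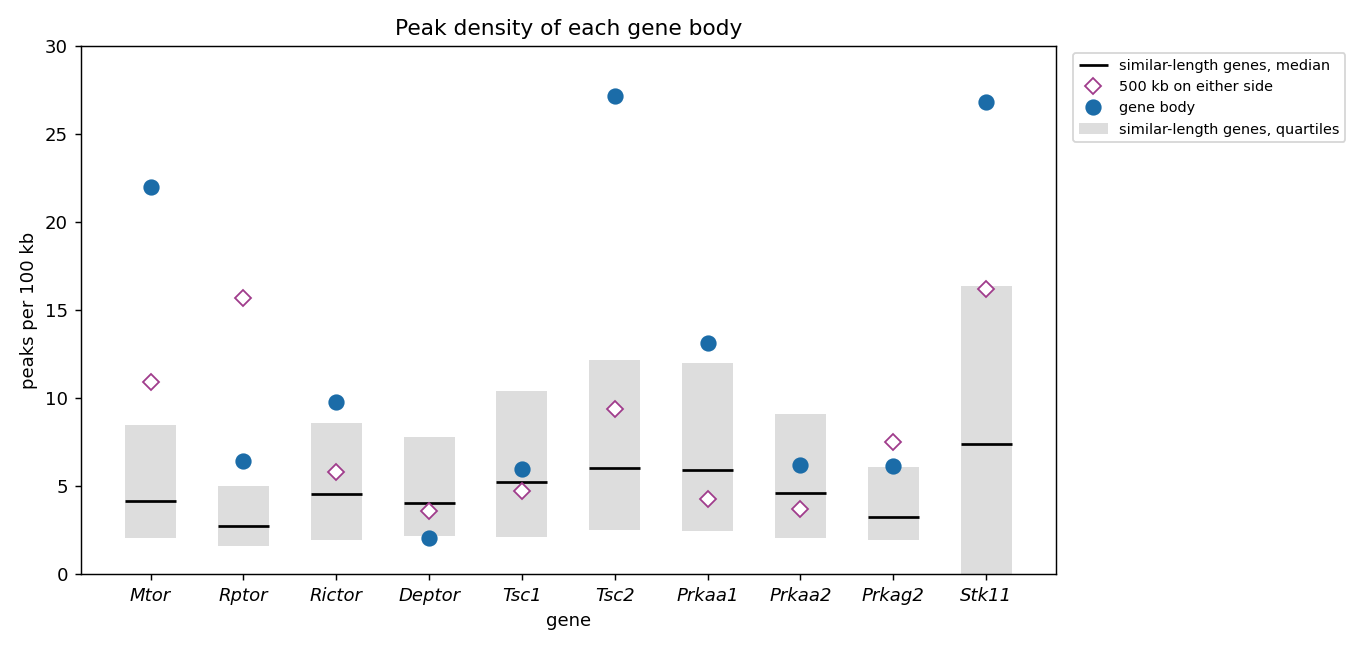
Peaks per 100 kb (vertical axis) for each of the 10 genes: blue points are the gene body, open diamonds the 500 kb on either side with the body left out, and grey bars with a black line the quartiles and median of protein-coding genes of similar length. Mtor (22.0), Tsc2 (27.1) and Stk11 (26.8) stand highest above their grey bars, Rictor (9.78), Prkaa1 (13.1), Prkag2 (6.16) and Rptor (6.40) also lie above theirs, and Deptor (2.04) lies below the median of its genes. Rptor, Prkag2 and Deptor lie below their own surroundings (15.7, 7.5 and 3.6).

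The start sites of these genes were free of peaks. A start site was listed for 9 of the genes, 11 sites in all, since Prkag2 has 3; Deptor is not in the promoter table. No gene of the 9 had a peak within 1 kb of a start site, where 7.81% of 12547 protein-coding genes had one. At that background a count of 0 among 9 genes is no result particular to them. The nearest peak stood between 1.47 kb (Tsc2) and 25.1 kb (Rptor) away, with a median of 9.24 kb over the 11 sites against 8.20 kb over 15401 start sites of protein-coding genes. MBD2 binds methylated CpG, so the number of CpG dinucleotides bears on what can be captured. The motif CG, which reads the same on both strands, was counted in the 300 bases from 250 before to 50 after each start; it occurs at least once in 96.1% of all such windows.

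To show how far the CpG supply of these starts differs, the 150 bases before the start of 4 genes are given below from RefSeq (GRCm38.p6), 5′ to 3′ on the gene's strand, with each CG in capitals. Among the start sites of these genes, Rptor and Mtor stand for those with fewer CG in this stretch and Rictor and Prkaa1 for the richest. The Prkag2 start with 3 CG in this stretch and Tsc1 with 10, both below Mtor, are not printed. Against all start sites, in the longer window described above, Mtor lay above the median CG number and Rptor just below it.
Mtor, chr4:148448432-148448581, + strand: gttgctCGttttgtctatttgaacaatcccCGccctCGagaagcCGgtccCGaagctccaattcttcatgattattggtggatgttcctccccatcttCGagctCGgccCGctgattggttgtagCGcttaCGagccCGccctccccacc
Rptor, chr11:119602755-119602904, + strand: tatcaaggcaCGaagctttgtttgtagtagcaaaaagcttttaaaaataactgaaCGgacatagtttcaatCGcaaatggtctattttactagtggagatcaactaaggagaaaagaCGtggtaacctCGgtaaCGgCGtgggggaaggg
Rictor, chr15:6708231-6708380, + strand: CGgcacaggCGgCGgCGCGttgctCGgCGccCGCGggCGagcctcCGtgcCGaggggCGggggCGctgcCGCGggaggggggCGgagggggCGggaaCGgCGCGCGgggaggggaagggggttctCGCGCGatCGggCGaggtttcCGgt
Prkaa1, chr15:5143711-5143860, + strand: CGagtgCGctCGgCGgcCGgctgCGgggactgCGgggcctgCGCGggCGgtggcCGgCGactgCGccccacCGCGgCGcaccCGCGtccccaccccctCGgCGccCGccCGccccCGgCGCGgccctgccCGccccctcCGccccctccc

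In these stretches 7 CG stand before Rptor, 11 before Mtor, 27 before Prkaa1 and 28 before Rictor. Over the 300-base window Prkaa1 had 52 CG, Rictor 47, Prkaa2 35, Stk11 33, Tsc2 29, Mtor 21, Tsc1 20 and Rptor 13, and the 3 Prkag2 sites had 45, 25 and 6. The median over all start sites was 14, and 9 of the 11 sites lay above it. When all start sites were ordered by CG number and cut into 3 equal classes, 7 of the 11 fell in the richest class, in which 2.40% of 5134 sites had a peak within 1 kb, against 8.94% of the middle and 9.29% of the poorest class. The Prkag2 site with 6 CG, a start inside the gene body at position 24995753 of chromosome 5, had a peak 1.91 kb away. The Prkag2 sites with 45 and 25 CG had their nearest peaks 14.5 and 18.0 kb away. A start without a peak says only that no region there passed the list's threshold.

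**Figure D2:**
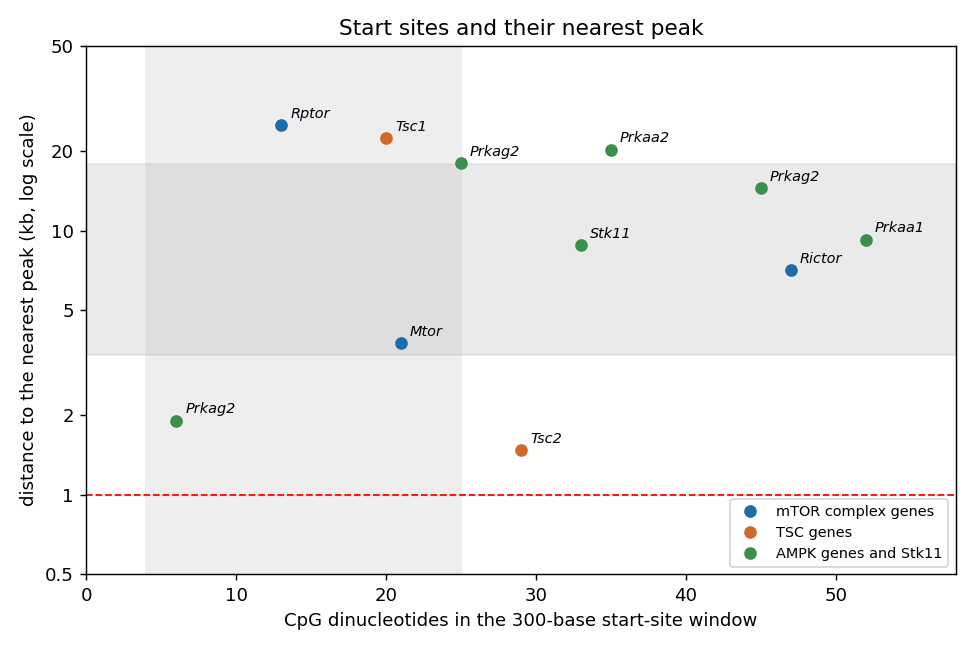
Distance from each of the 11 start sites to its nearest peak (vertical axis, kb, log scale) against the number of CpG dinucleotides in the 300-base window (horizontal axis); grey bands are the quartiles over 15401 start sites and the dashed red line marks 1 kb. All 11 points lie above the line, from 1.47 kb at Tsc2 to 25.1 kb at Rptor.

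At the 3′ ends the picture was mixed. A peak lay within 1 kb of the 3′ end, on either side of it, in 4 of the 9 oriented genes. The distances were 0.35 kb for Rptor, 0.42 kb for Stk11, 0.77 kb for Prkag2 and 0.853 kb for Tsc2. The Tsc2 peak lay past the end of the gene, in Pkd1, and the others in the gene body. The share over protein-coding genes was 16.9%. In the other 5 the nearest peak was 4.14 kb (Rictor) to 6.69 kb (Prkaa2) away. Of the 94 body peaks of the 9 genes, 8.51% fell in the first 10% of the gene and 18.1% in the last 10%. Over protein-coding genes in the same length range the shares were 5.35% and 17.0%, from 26495 peaks. Without Mtor the first 10% held 5.71% of the peaks and the last 10% held 22.9%.

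**Figure D3:**
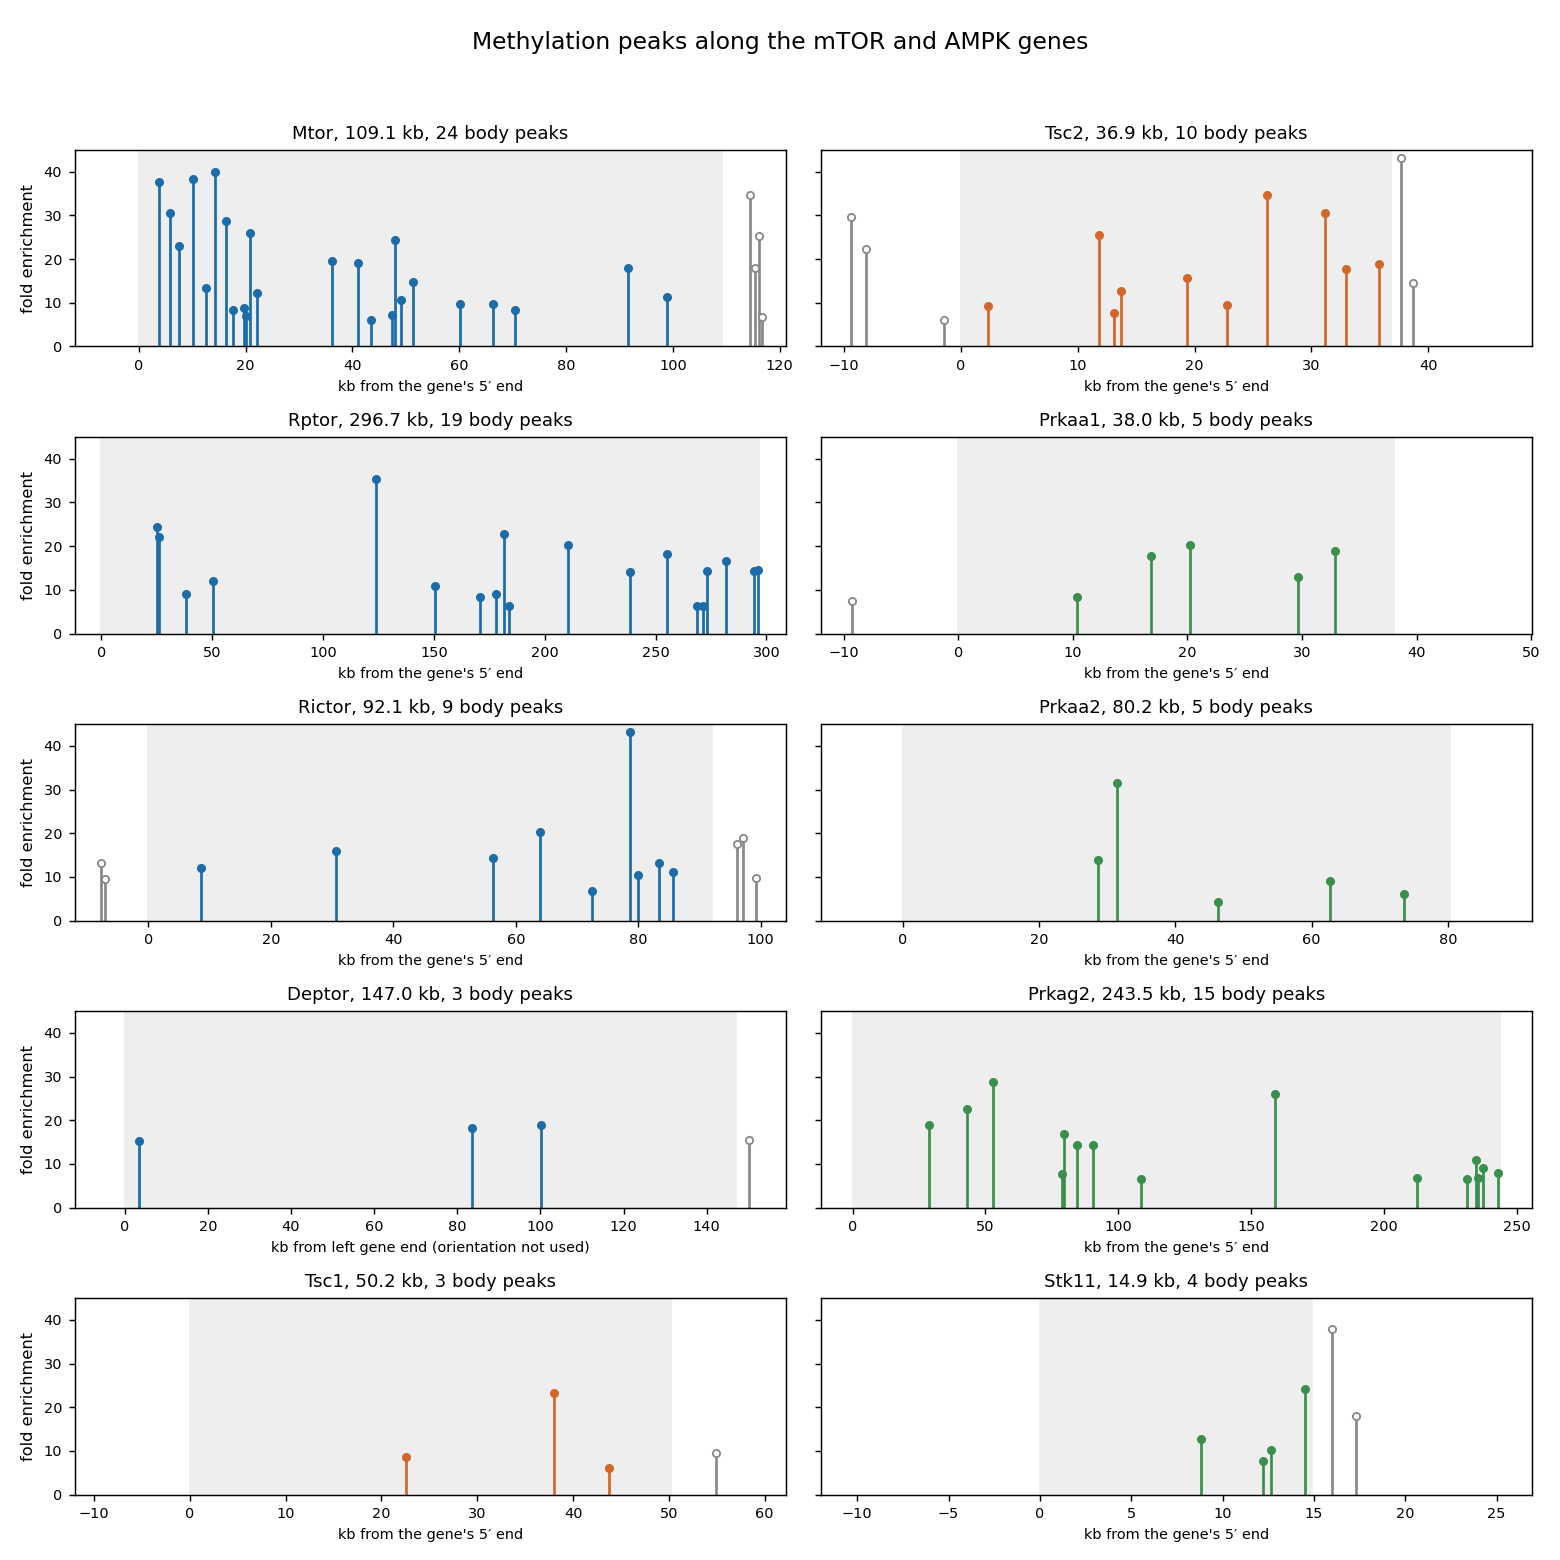
Each panel shows one gene, with the body shaded and 10 kb on either side; a stem marks a peak at its distance from the gene's 5′ end (horizontal axis, kb) with its fold enrichment as height (vertical axis). Filled points are body peaks and open points flanking ones. Mtor peaks crowd within 3.75 to 22.1 kb of its start, those of Rptor thicken toward the 3′ end, and Deptor, drawn from its left end because no strand was used, has 3 body peaks.

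Mtor, the kinase itself (gene 56717; GRCm38 chr4:148448582-148557685, + strand), held 24 body peaks. Genes of similar length, 959 of them, had a median of 5 and quartiles of 2 and 9, and 18 had more peaks than Mtor. By density it lay at the 98.0th percentile. Its surroundings, 500 kb on either side, held 10.9 peaks per 100 kb, so its body was 2.02 times as dense. The Mtor peaks were unevenly spread: 12 lay in the first 25 kb, the remaining 12 in the other 84.1 kb. This limit of 25 kb was chosen after the positions were seen. The 12 in the first 25 kb had a median fold enrichment of 24.6 (7.05 to 40.0) and 7 of them reached 20, whereas the other 12 had a median fold of 11.0 (6.10 to 24.3) and 1 reached 20. Fold enrichment is the peak caller's ratio of the reads at the summit to its background, as the authors deposited it.

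The Mtor peak with the highest fold, 40.0, was 974 bp wide at chr4:148462260-148463233, 14.2 kb from the start. The widest Mtor peak, 1170 bp with a fold of 30.7, lay nearer the start at 5.77 kb. Across the body, 4 peaks between 47.4 and 51.3 kb also lay in Angptl7, a gene for a secreted angiopoietin-like protein inside the bounds of Mtor. The peaks there had folds of 7.19, 24.3, 10.7 and 14.8 and cannot be assigned to either gene. No peak lay in the 10 kb upstream. The 4 peaks downstream, with folds of 34.6, 18.0, 25.2 and 6.78, all fell in Exosc10, which encodes a nuclease of the RNA exosome.

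Rptor, the scaffold of mTORC1 (gene 74370; chr11:119602905-119899591, + strand), is the longest of the 10 genes and held 19 body peaks. It lay at the 83.9th percentile of 285 genes of similar length, whose median was 8. The 500 kb on either side of Rptor were richer, with 15.7 peaks per 100 kb, so the body had 0.408 times their density. It was thus denser than most genes of its length and sparser than its neighbourhood. The first 25.1 kb carried no peak. Within the body, 5 peaks lay in the first 50% of the gene and 14 in the rest, 6 of them in the last 10%. The strongest, with a fold of 35.3, was 532 bp wide at chr11:119726655-119727186, and a stretch of 73.6 kb before it was empty. The flanks of Rptor held no peak.

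Rictor, the scaffold of mTORC2 (gene 78757; chr15:6708349-6800401, + strand), held 9 body peaks and lay at the 79.6th percentile of 1094 genes of similar length (median 4). With only peaks of a −log10 q of at least 100 it lay at the 53.6th. Its density was 1.69 times that of its surroundings. Of the 9, 7 lay in the second 50% of the gene. Its peak at chr15:6786537-6787412, 876 bp wide, had the highest fold of all 97 body peaks, 43.1; the next in Rictor was 20.2. The flanks held 5 peaks, 2 upstream and 3 downstream, none of them in another gene. Reads at the summit and the caller's background were recovered from each peak's deposited fold and p-value. The farthest downstream peak had a fold of 9.86, with 459 reads at the summit over a background of 45.7 reads. The commonest background in the list is 6.37 reads.

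Deptor, the inhibitor of mTOR (gene 97998; chr15:55112317-55259273), was the sparsest. Its 147 kb held 3 peaks, where 682 genes of similar length had a median of 6, and it lay at the 23.6th percentile. The 500 kb on either side were sparse too, with 3.60 peaks per 100 kb. A stretch of 80.1 kb, 54.5% of the gene, had no peak. The 3 peaks that were present had folds of 15.2, 18.2 and 19.0, so the lowest of them was above the median of 13.7 over peaks in protein-coding bodies. One flanking peak had a fold of 15.5.

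The TSC pair held unlike numbers of peaks. Tsc2 (gene 22084; chr17:24595816-24632676, − strand), which carries the GTPase-activating domain, held 10 peaks in 36.9 kb. It lay at the 97.0th percentile of 1761 genes of similar length, whose median was 2, and 50 of these had more peaks. Peaks covered 11.6% of the Tsc2 body, the largest share among the 10 genes. Tsc1 (gene 64930; chr2:28640993-28691172, + strand), which encodes hamartin, the partner that stabilises Tsc2, held 3 peaks in 50.2 kb, at the 54.0th percentile of 1501 genes, and peaks covered 1.82% of it. The bodies were denser than the 500 kb on either side by 2.89 times in Tsc2 and 1.27 times in Tsc1.

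The folds in Tsc2 ran from 7.73 to 34.7, with a median of 16.7. The strongest was 1032 bp wide at chr17:24605958-24606989. In Tsc1 the 3 folds were 8.68, 23.3 and 6.10, and the strongest lay at chr2:28678796-28679279. The first 22.3 kb of Tsc1 from its start site had no peak. Tsc2 is flanked closely by other genes. Of its 5 flanking peaks, 2 downstream lay in Pkd1, the polycystin gene, with folds of 43.1 and 14.5. The 3 upstream lay in Nthl1, a DNA repair glycosylase gene, with a fold of 6.10, and in Slc9a3r2, a scaffold protein gene, with folds of 22.4 and 29.6. The flanking peak of Tsc1, with a fold of 9.63, lay in Spaca9.

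The catalytic alpha subunits of AMPK are encoded by Prkaa1 and Prkaa2, and each body held 5 peaks. Prkaa1 (gene 105787; chr15:5143861-5181899, + strand) is the shorter, so its density was the higher, 13.1 against 6.23 per 100 kb. Prkaa1 lay at the 78.7th percentile of 1714 genes of similar length and Prkaa2 (gene 108079; chr4:105029649-105109898, − strand) at the 61.0th of 1172. The density of Prkaa1 was 3.06 times that of its surroundings, the highest ratio among the 10, and that of Prkaa2 was 1.68 times. Prkaa1 folds were 8.28, 17.6, 20.3, 12.9 and 18.9, the strongest at chr15:5163874-5164285.

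Prkaa2 folds were more uneven. From the 5′ end they were 13.8, 31.6, 4.36, 8.95 and 6.10, with the strongest at chr4:105078164-105078661. The fold of 4.36 was the lowest among all 97 body peaks and belonged to the widest of them, 1231 bp at chr4:105062978-105064208. That peak had 415 reads at its summit, the most of any body peak in the 10 genes, over a background of 94.4 reads. It was 1 of only 2 body peaks above the commonest background. The other was a Rptor peak with a fold of 22.1 over 8.13 reads. The nearest peak to the Prkaa2 start site, 20.3 kb away, lay upstream beyond the 10 kb flank.

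Prkag2, which encodes a gamma subunit that binds AMP and ATP (gene 108099; chr5:24862735-25106282, − strand), held 15 peaks in 244 kb. It lay at the 75.2nd percentile of 379 genes of similar length (median 8), and its density was 0.821 times that of its surroundings. Peaks toward its 3′ end had a lower median fold and width than those in the rest of the body. The 9 peaks in the first 200 kb had a median fold of 17.0 (6.51 to 28.8) and a median width of 404 bp. The 6 in the last 43.5 kb had a median fold of 7.39 (6.51 to 10.9) and a median width of 175 bp. The division at 200 kb was chosen after the positions were seen. The strongest lay at chr5:25053252-25053765. The peak nearest to the start site at 24995753, with a fold of 6.51, also lay in the lncRNA 1500035N22Rik. The flanks of Prkag2 held no peak.

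Stk11, the gene of the kinase LKB1 that activates AMPK (gene 20869; chr10:80115767-80130679, + strand), is the shortest, 14.9 kb, and held 4 peaks, at the 89.6th percentile of 1841 genes of similar length (median 1). With peaks within 500 bp merged, Stk11 held 2. The peaks with folds of 7.73 and 10.3 then joined, and the strongest joined the flanking peaks, which moved its midpoint past the gene. With only peaks of a −log10 q of at least 100 or of at least the median fold, Stk11 held 1, at the 65.8th and 62.0th percentiles. All 4 lay in the second 50% of the gene. From the 5′ end their folds were 12.8, 7.73, 10.3 and 24.1, the last at chr10:80129921-80130598. A stronger peak followed past the gene, 1291 bp wide with a fold of 37.8, at chr10:80131087-80132377, in Cbarp, which encodes a regulator of calcium channels. The 500 kb on either side of Stk11 were the richest among the 10 genes, with 16.2 peaks per 100 kb.

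In all, 19 peaks lay in the 10 kb flanks of 7 of the 10 genes, where 57.8% of protein-coding genes had a flanking peak. Of these, 6 were upstream, 12 downstream and 1 beside Deptor, and 13 lay inside another gene. Flanking values thus belong to neighbouring genes as well.

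The peaks themselves were of ordinary strength. The 97 body peaks had a median fold of 14.0 (quartiles 8.95 and 20.2), against 13.7 (8.82 and 22.7) over 44414 peaks in protein-coding bodies. Their median width was 359 bp against 393 bp, and the median number of reads at the summit 104 against 115. A fold of at least 20 was reached by 25 of the 97, or 25.8%, against 30.9%. Peaks of at least 1 kb numbered 3 (3.09%, against 4.10% of peaks in protein-coding bodies), in Mtor, Tsc2 and Prkaa2. The commonest background applied to 95 of the 97 (97.9%), against 85.1% of peaks in protein-coding bodies and 74.98% of all peaks. This background is 1 shared value, 6.37 reads, and how it was set is not given in the sources used here. By role, median folds were 14.4 in the mTOR complex genes (55 peaks), 15.7 in the TSC genes (13 peaks) and 12.8 in the AMPK genes with Stk11 (29 peaks).

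**Figure D4:**
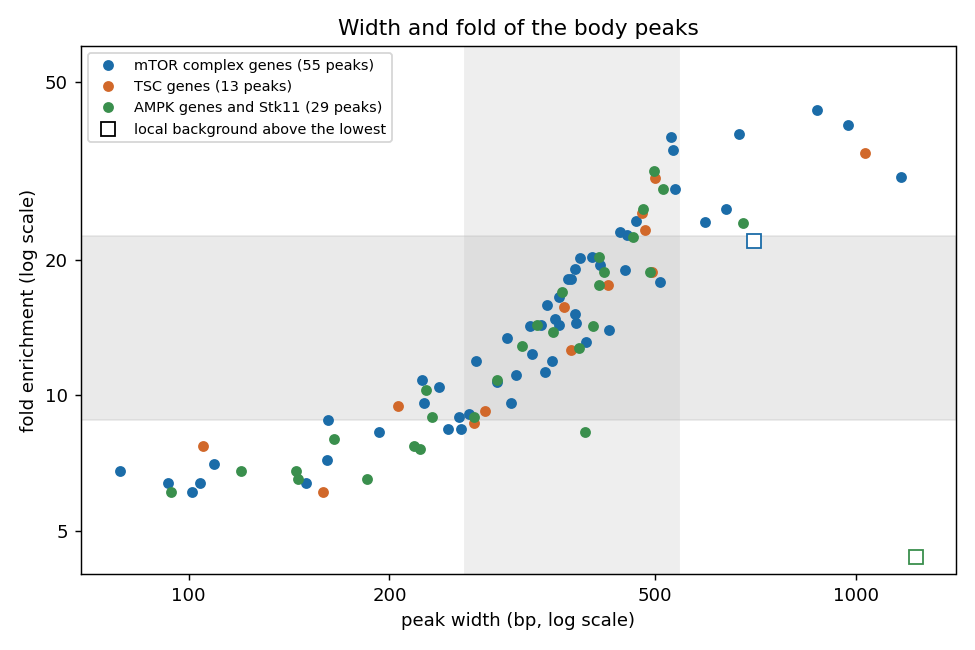
Fold enrichment (vertical axis, log scale) against width in bp (horizontal axis, log scale) for the 97 body peaks, coloured by role, with grey bands for the quartiles of peaks in protein-coding bodies. Points rise together from narrow, weak peaks to wide, strong ones. The open squares are the 2 peaks above the commonest background, which is the lowest among the 97. Of these 2, the Prkaa2 peak (1231 bp, fold 4.36) lies apart at the lower right.

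The wider pathway was surveyed with 63 further genes, of which 53 lay on covered sequence and 10 were not analysed here. At least 1 body peak was present in 43 of the 53 (81.1%). The share was 64.7% over all protein-coding genes and 81.8% over those in the length range of the 10 genes, though some of the 53 are shorter. The median density was 7.27 peaks per 100 kb against 4.14 over protein-coding genes of any length. By density, 32 of the 53 lay above the median of genes of similar length. The 4 remaining AMPK subunit genes all held peaks, 11 in total, and all 4 lay above that median. Among genes that sense nutrients or restrain mTORC1, 9 of 12 held a peak and 8 lay above the median. Of the genes that bring mTORC1 to the lysosome, 6 of 12 held none, including Rheb, the GTPase that switches mTORC1 on, and 4 very short ones, Rraga, Lamtor2, Lamtor4 and Lamtor5, all named after their values were seen. Genes downstream of mTOR held a peak in 8 of 8 cases, genes upstream of AMPK in 6 of 7 and AMPK targets in 4 of 4. These counts of genes with a peak by group were not set against genes of similar length.

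Among the pathway genes with at least 3 body peaks, Wdr24, Flcn, Prkab1 and Sesn2 were at the upper end of density. Wdr24, a subunit of the GATOR2 complex that relays amino acid supply, had 3 peaks in 5.10 kb. Flcn, folliculin, which acts on the Rag GTPases at the lysosome, had 9 peaks in 18.6 kb, 48.3 per 100 kb. Prkab1, the beta subunit that scaffolds AMPK, had 5 in 10.9 kb, 45.8 per 100 kb. Sesn2, a leucine sensor, had 6 in 17.7 kb. At the other end, Cab39l and Fnip1, named after their values were seen as the longest genes of the list without a body peak, span 108 and 80.1 kb. Cab39l encodes a partner of LKB1 and Fnip1 a partner of folliculin.

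A peak within 1 kb of a start site was found in 2 of the 47 pathway genes with a listed start (4.26%, against 7.81%), Tfeb and Flcn. TFEB is the transcription factor of lysosomal genes that mTORC1 holds in the cytoplasm. Its peak at chr17:47785778-47786480 had a fold of 24.8 and its midpoint lay 385 bp past a start site with 6 CG in the 300-base window. This is 1 of 3 listed Tfeb starts and lies inside the gene, 48.7 kb into its 55.4 kb. The Flcn peak at chr11:59810850-59811125 had a fold of 11.8 and lay upstream of a start with 20 CG, 0.949 kb away.

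**Figure D5:**
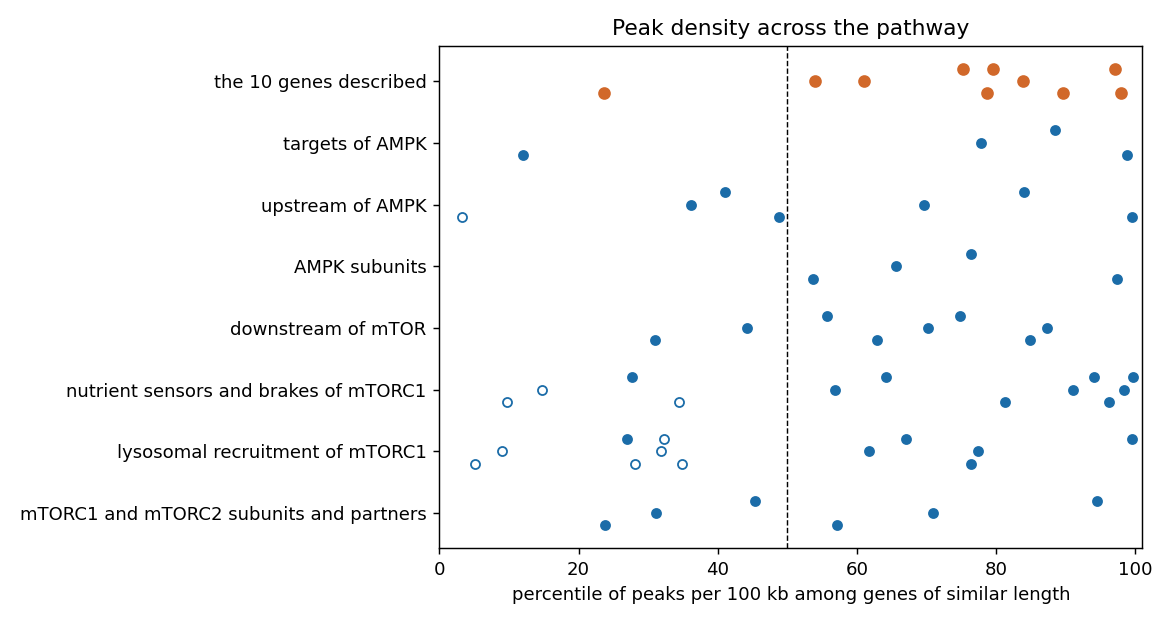
Percentile of each gene's peaks per 100 kb among protein-coding genes of similar length (horizontal axis) by pathway group (rows); blue points are the 53 further genes, open where no body peak was found, orange points the 10 genes described, and the dashed line the median. Of the 10, only Deptor, at 23.6, lies left of the line, and of the 53 further genes 32 lie to its right.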

How the data were processed

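The series holds MBD-seq of 6 chondrocyte cultures, 3 control and 3 cKO; one peak list for the series was analysed. fastp, Bowtie2 and MACS2 and the builds mm10 and GRCm38 are named, without versions or roles, per the submitters' processing notes. Per the peak names, 3 datasets were merged with Samtools before calling. The fold enrichment (a ratio), −log10 p, −log10 q and score (10 times the −log10 q, cut to a whole number) are as deposited; the lowest −log10 q was 20.004. The list ended in 1 incomplete line, left out, on chromosome 6; the sequence beyond it and the other chromosomes (X, Y and 7 to 9) were not used here. MBD capture depends on CpG density, so peaks do not measure a methylation level.

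Positions are 1-based. Gene bounds came from RefSeq GRCm38.p6, and start sites and strand from its promoter table; exons were not used, so no peak is called exonic or intronic. Genes starting in the first 3 Mb of a chromosome were left out. Summit reads and background were solved from fold = (reads + 1)/(background + 1) and the Poisson p, which matched 99.97% of peaks within 1% of the spacing of whole reads. Similar length means at most 25% longer or 20% shorter; percentiles count ties at the midpoint. The genes and the pathway list were chosen with earlier results of these data known. Named were the 10 genes, their strongest and widest body peaks and any peak within 1 kb of a start; in the pathway list, the 5 densest genes with at least 3 body peaks and those with such a start peak, of which 1 gene is left out of the text. Alternatives were other placing, filters, merging within 500 bp, flanks and length bands; leaving out Mtor, and percentiles under 2 filters, were added after seeing the data. Python 3.11.15, numpy 2.4.6, pandas 2.3.3 and scipy 1.17.1 were used.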

Additional observations from a re-analysis of the deposited data

How the results depend on the processing

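No paired analysis was possible because peaks carry no values by culture, and for the same reason no replicate was left out. All 10 genes kept a body peak under each of the 7 ways of placing, merging or filtering peaks. Placing by summit or by any overlap, merging, and keeping only peaks at the commonest background left the pooled counts and density within 1.5 times of the main values. In these settings the median fold was 14.0 to 14.2 and the median width 354 to 370 bp. Stricter filters changed the totals by construction. A −log10 q of at least 100 left 39 body peaks, 3.52 per 100 kb, and 11 flanking peaks, with a median fold of 22.8 and width of 484 bp. A fold of at least the median of all peaks left 52 body peaks, 4.69 per 100 kb, with medians of 19.3 and 435.5 bp, and a −log10 q of at least 50 gave medians of 18.0 and 408 bp. Flanks of 5 and 20 kb held 8 and 42 peaks. Over 6 alternatives (length bands, all genes, 2 filters) the percentile by density ran from 97.4 to 98.3 for Mtor and from 95.3 to 97.8 for Tsc2. It crossed the median for Deptor (23.0 to 52.8) and Tsc1 (43.3 to 60.6). It fell as low as 53.6 for Rictor and Prkaa2, 62.0 for Stk11, 64.6 for Prkag2, 75.1 for Rptor and 77.7 for Prkaa1. Merging within 500 bp left Stk11 with 2 body peaks in place of 4, in part because its strongest joined flanking peaks and was counted outside the body.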
